A study of Mus musculus with 4 samples.

Results

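The Hox genes encode homeodomain transcription factors that give cells positional identity along the head-to-tail axis, and in the mouse they lie in 4 clusters, Hoxa to Hoxd, named after the order of their paralog groups from the 3′ end (group 1) to the 5′ end (group 13). In the embryo genes at the 3′ end are switched on earlier and further forward than genes at the 5′ end. Retinoic acid signalling and the Cdx factors act on this order, and Polycomb proteins keep silent members repressed. In the early heart 3′ members such as Hoxb1 and Hoxa3 are known from a posterior part of the second heart field, the progenitor pool that adds cells to the poles of the heart tube.

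The 39 genes of the clusters were taken from the RNA-seq table of day 5 cardiac progenitor cells (CPCs) by their symbols (Hoxa, Hoxb, Hoxc or Hoxd followed by a number), out of 20701 genes, with no filter on expression. They filled 47 rows of the table, since 6 of them had several transcripts, and for each gene the transcript with most reads was kept. The cells came from E14 Tg(Nkx2-5-EmGFP) mouse embryonic stem cells (ESCs), which carry GFP driven by the cardiac gene Nkx2-5, and were grown on mouse embryonic fibroblast feeders before directed cardiac differentiation. There were 2 libraries of control ESCs and 2 of Baf60c KD ESCs. In the latter a short hairpin RNA (shRNA) targets Smarcd3, the gene of Baf60c, a subunit of SWI/SNF chromatin remodelling complexes that is enriched in heart and muscle. The control cells carried the control vector (pLKO), and shRNAs were delivered by lentivirus with selection of stably transduced cells. In all 4 libraries GFP+ cells were sorted at day 5 before polyA RNA was sequenced, so a difference may lie in the cells that passed the gate as well as in their expression. The sources used here do not say which shRNA was used or which pool of ESCs gave which library. P-values therefore set the difference between groups only against the spread between libraries of a group, moderated over all genes. Part of that spread may be technical. The groups were set up to ask what Baf60c contributes to gene expression in CPCs.

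The table was scaled to 22064092 to 30398452 reads per library, and levels are given in RPKM, which divides a transcript's reads by its length in kilobases and by that total. Smarcd3 checked the labels, with 173.9 and 166.8 RPKM in control against 46.4 and 46.3 RPKM in Baf60c KD (log2 fold change −1.85, SE 0.029; limma, Benjamini-Hochberg adjusted p = 1.92e-06). The cardiac progenitor markers were present, with Nkx2-5 at 25.6 and 25.4 RPKM in control against 19.6 and 17.0 RPKM in Baf60c KD and all 8 markers on the list read in every library. In bulk RNA a lower level in every cell and a smaller number of expressing cells cannot be told apart, and this holds for every value below.

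In these cells the summed levels of the Hoxb, Hoxc and Hoxd clusters were higher in both Baf60c KD libraries than in both control libraries. Of 33 members with at least 1 read, 18 were higher at an adjusted p under 0.05, where 25.3% of all 16061 genes with a read were higher and 13.3% were lower (limma on log2(RPKM + 1), Benjamini-Hochberg). No member was lower by this test, at an unadjusted p under 0.05 (0 members) or with voom, limma's test on reads (20 higher and 0 lower, where 29% of all genes were higher and 15.8% lower). Since the calls depend on level, the share of all genes higher was 8.49% (and 5.67% were lower) among those with a mean under 0.5 RPKM and 32.3% among those with at least 0.5 RPKM. By the same mean, 9 of the 18 members called were at or above 0.5 RPKM and 9 were under it, and Hoxd1, Hoxd8 and Hoxd9 reached it only through the Baf60c KD libraries. The median log2 fold change of the 33 members was 0.16 on this scale, which understates changes of low genes, beside 0.025 over all genes. With other scaling of the libraries (median-ratio factors) 17 members were higher and 0 lower, beside 18.4% and 18.1% of all genes. Without Baf60c KD replicate 1 no gene of the whole table passed, and without Baf60c KD replicate 2 only 5 members did, while with genes of at least 10 reads, a filter chosen after seeing the data, leaving out each library in turn gave 13 to 16 calls among 21 members. Of these 21, 7 had at most 1 read in control and pass such a filter only through the Baf60c KD libraries. Hoxb7, Hoxb8, Hoxc8, Hoxc13 and Hoxd1 also had fewer than 10 control reads in all (4, 5, 3, 5 and 8). Both Baf60c KD libraries lay above both control libraries for 26 members and below them for 0, beside 42% and 25.2% of all genes. Of the 33 members, 13 had no control read and so could not be lower in any of these counts. That state was found in 3.11% of all 20701 genes, so the shares over all genes are not a like comparison for lower members.

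**Figure D1:**
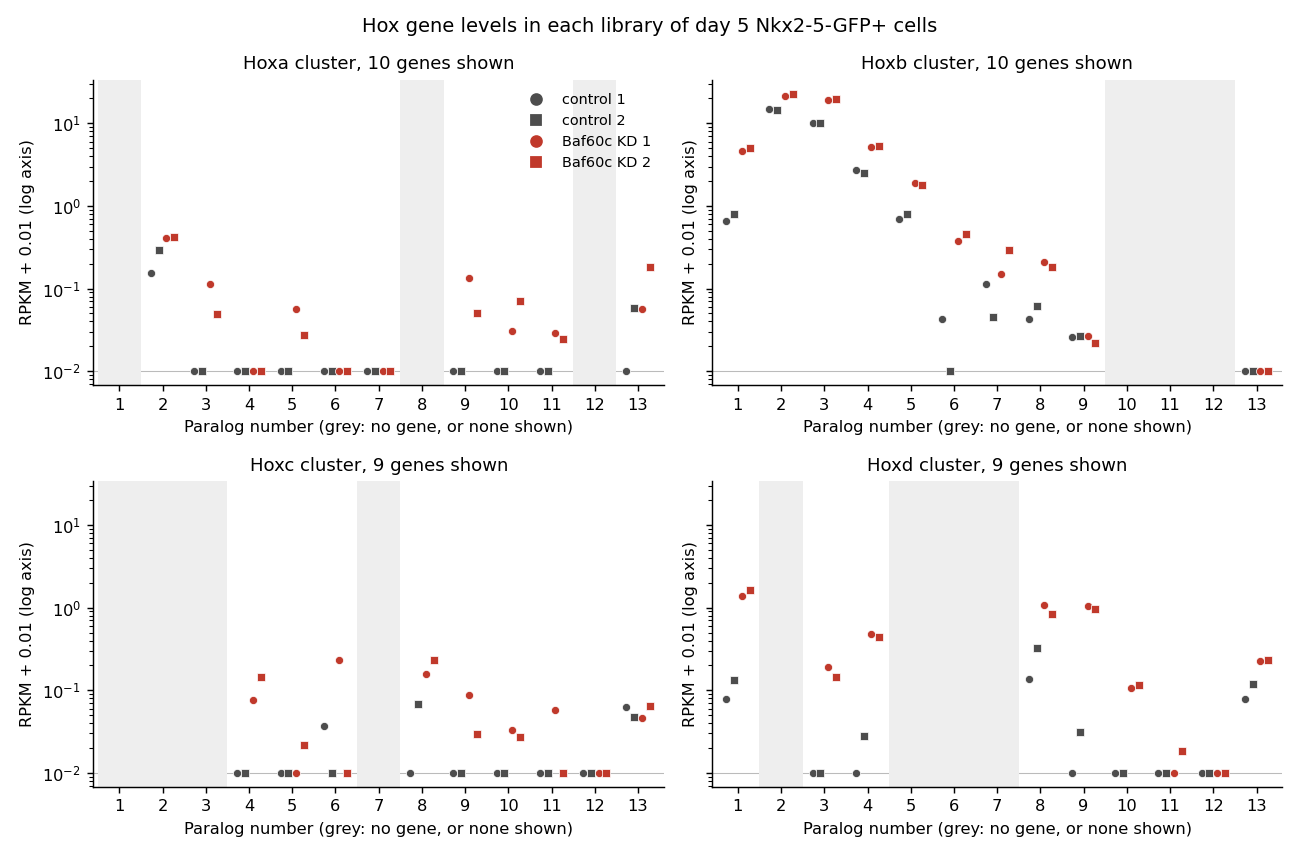
Level of Hox genes in each library (RPKM + 0.01, log axis; points on the grey line are at 0 reads) by paralog number, with 1 panel per cluster and grey bands where the mouse has no gene or none is shown. Both Baf60c KD libraries (red) lie above both control libraries (dark grey) for most members with reads, and levels are highest at the 3′ end of Hoxb.

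Promoter windows are shown for Hoxb1, Hoxd1, Hoxd4 and Hoxd9, which were among the members with the largest read ratios. The windows run from 250 bases before to 50 bases after the RefSeq start in build GRCm38.p6, 5′ to 3′ on the plus strand, and capitals mark matches on either strand to TGATNNAT, the core of sites bound jointly by Pbx and Hox proteins, or to TATAAA, the core of the box of that name.
Hoxb1, chr11:96365508-96365807: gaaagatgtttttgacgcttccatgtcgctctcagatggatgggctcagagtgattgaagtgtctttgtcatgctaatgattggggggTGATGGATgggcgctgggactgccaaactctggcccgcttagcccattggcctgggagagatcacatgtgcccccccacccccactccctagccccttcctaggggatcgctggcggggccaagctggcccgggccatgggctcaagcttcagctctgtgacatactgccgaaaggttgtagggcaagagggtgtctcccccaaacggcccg
Hoxd1, chr2:74762730-74763029: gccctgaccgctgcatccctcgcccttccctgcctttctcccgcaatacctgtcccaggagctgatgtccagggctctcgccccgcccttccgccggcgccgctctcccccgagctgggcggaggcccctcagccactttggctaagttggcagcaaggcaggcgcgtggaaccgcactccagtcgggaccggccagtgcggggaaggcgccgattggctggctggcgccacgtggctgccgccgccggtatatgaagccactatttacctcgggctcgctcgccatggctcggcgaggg
Hoxd4, chr2:74721728-74722027: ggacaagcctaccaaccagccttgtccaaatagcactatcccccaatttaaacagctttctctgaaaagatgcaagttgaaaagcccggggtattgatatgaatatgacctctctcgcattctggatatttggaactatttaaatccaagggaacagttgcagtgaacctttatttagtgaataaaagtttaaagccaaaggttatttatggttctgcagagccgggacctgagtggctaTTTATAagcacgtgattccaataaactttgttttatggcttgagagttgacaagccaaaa
Hoxd9, chr2:74697513-74697812: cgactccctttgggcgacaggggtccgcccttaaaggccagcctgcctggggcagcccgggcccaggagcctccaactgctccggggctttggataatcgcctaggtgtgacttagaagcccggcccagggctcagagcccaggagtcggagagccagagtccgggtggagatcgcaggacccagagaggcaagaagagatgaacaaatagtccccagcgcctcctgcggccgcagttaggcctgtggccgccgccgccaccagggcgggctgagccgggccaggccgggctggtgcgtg
The Hoxb1 window has 1 TGATNNAT match, and the Hoxd4 window has 1 TATAAA match, on the minus strand, that starts 10 bases before the RefSeq start. Of the 22 Hox genes with a window in the table, TGATNNAT was found in 4 (Hoxa2, Hoxb1, Hoxb8 and Hoxd11), and 8.85% of all 32851 windows hold it. TATAAA was found in 4 (Hoxa10, Hoxb8, Hoxd4 and Hoxd13), beside 13.6% of all windows. The windows of the Hox genes held a median of 14.5 CpG dinucleotides against 7 over all windows, with 10 in Hoxb1, 29 in Hoxd1, 4 in Hoxd4 and 20 in Hoxd9. A match is a run of letters and not a shown binding site, and no binding was measured in these libraries.

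The Hoxb cluster, on chromosome 11 (mm9, 96055630 to 96229570, plus strand), held the most abundant Hox genes. Its 10 genes summed to 28.9 and 28.9 RPKM in control against 53.3 and 55.5 RPKM in Baf60c KD, a ratio of 1.88, and 7 of them rose, 2 were not past the test (Hoxb7 and Hoxb9) and Hoxb13 had no read. Hoxb2 and Hoxb3 were the most abundant Hox genes in both groups.

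Hoxb1, the group 1 gene that specifies the fourth rhombomere of the hindbrain and is also expressed in posterior heart progenitors, had 31 and 36 reads (0.644 and 0.787 RPKM) in control against 218 and 312 reads (4.63 and 4.95 RPKM) in Baf60c KD. The groups lay far apart relative to the spread within each, 0.715 ± 0.101 against 4.79 ± 0.227 RPKM (SD, n = 2 each). Its reads, scaled by library totals, were 6.75 times as many in Baf60c KD (exact 95% interval 5.22 to 8.83, which like all intervals here covers counting error only), and its log2 fold change was 1.76 (SE 0.072, limma adjusted p = 2.61e-05). This was the largest log2 fold change among the Hox genes on log2(RPKM + 1), whereas with a pseudocount of 0.1 RPKM that of Hoxd9 was larger (3.32 against 2.59), as was its read ratio.

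Hoxb2, which acts in the hindbrain beside Hoxb1, had 557 and 523 reads in control against 799 and 1129 reads in Baf60c KD, or 14.8 and 14.6 against 21.6 and 22.9 RPKM. Hoxb3 had 782 and 757 reads in control against 1471 and 2026 reads in Baf60c KD, or 9.95 and 10.1 against 19.1 and 19.7 RPKM. Both rose, by log2 fold changes of 0.57 (SE 0.041, limma adjusted p = 2.04e-04) and 0.89 (SE 0.039, adjusted p = 3.38e-05). The ratio of reads was smaller for Hoxb2 (1.52, interval 1.41 to 1.64) than for Hoxb3 (1.94, interval 1.82 to 2.06) and Hoxb1. These intervals do not overlap, but they leave out the spread between libraries, and the difference between the genes was not tested. Exons of Hoxb2 and of Hoxb3 share bases with Hoxb3os on the opposite strand, and since counting took reads of both strands, such reads could not be separated.

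Hoxb4, a gene known for its part in blood stem cells, had 2.70 and 2.46 RPKM in control against 5.22 and 5.34 RPKM in Baf60c KD (161, 139, 304 and 416 reads). Hoxb5 had 0.682 and 0.791 RPKM in control against 1.91 and 1.77 RPKM in Baf60c KD (30, 33, 82 and 102 reads). These neighbours rose by 0.81 and 0.71 on the log2 scale (limma adjusted p = 2.34e-04 and 6.84e-04), with read ratios of 2.05 and 2.49. Exons of Hoxb4 overlap Mir10a and those of Hoxb5 overlap 0610040B09Rik on the opposite strand.

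Towards the 5′ end of the cluster reads became few. Hoxb6 had 1 and 0 reads in control against 11 and 18 in Baf60c KD, a read ratio of 24.7 with a wide counting interval (4.10 to 1010), and rose (log2 fold change 0.47, limma adjusted p = 5.04e-04). Hoxb8 had 2 and 3 reads in control against 12 and 14 in Baf60c KD and rose too (0.19, adjusted p = 0.00435; read ratio 4.43, interval 1.68 to 14.8). Hoxb7, which lies between them, had 3 and 1 reads in control against 4 and 11 in Baf60c KD and did not pass (adjusted p = 0.0702), and its exons overlap those of Hoxb8, so that some reads may be shared. Hoxb9 had 1 read in each of the 4 libraries.

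The Hoxd cluster, on chromosome 2 (mm9, 74506367 to 74603200, plus strand), showed a larger ratio than Hoxb or Hoxc. Its 9 genes summed to 0.265 and 0.581 RPKM in control against 4.44 and 4.33 RPKM in Baf60c KD, 10.3 times as high. There were 7 members that rose, Hoxd11 had 1 read in all and Hoxd12 had none. The control libraries differed from each other, with a mean of 0.423 ± 0.224 RPKM (SD, n = 2), and both lay far below the Baf60c KD libraries.

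Hoxd1, the group 1 gene at the 3′ end, had 3 and 5 reads (0.0695 and 0.122 RPKM) in control against 58 and 92 reads (1.37 and 1.63 RPKM) in Baf60c KD. It rose by 1.19 on the log2 scale (SE 0.075, limma adjusted p = 1.29e-04), with a read ratio of 16.0 (interval 7.91 to 37.7). Hoxd9, which helps to pattern limb and trunk, had 0 and 1 reads in control against 50 and 61 reads in Baf60c KD (1.05 and 0.957 RPKM). Its ratio of 94.7 rests on 1 control read, and its counting interval runs from 16.6 to 3772. Hoxd9 rose by 0.99 (SE 0.051, adjusted p = 6.01e-05) and went from rank 19 to rank 8 of the 39 genes by level.

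Hoxd4, a group 4 gene with a known retinoic acid response element, had 0 and 1 reads in control against 27 and 33 reads in Baf60c KD (0.466 and 0.426 RPKM), and rose by 0.52 (limma adjusted p = 1.74e-04; read ratio 51.2, interval 8.84 to 2054). Hoxd3 had no read in control and 12 reads in each Baf60c KD library. Against the floor of 3 counts over the group it was 6.82-fold higher, with the Baf60c KD count taken as exact (limma adjusted p = 0.0029). The exact counting interval of its ratio starts lower, at 5.13. Annotated exons of Hoxd3 and Hoxd4 overlap on the same strand, so a read can count for both, and Hoxd3 also overlaps 1700109F18Rik on the opposite strand.

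Hoxd8 was the most abundant Hoxd gene in control, with 6 and 14 reads (0.126 and 0.310 RPKM), and had 49 and 52 reads (1.05 and 0.836 RPKM) in Baf60c KD. It rose by 0.68 on the log2 scale (SE 0.094, limma adjusted p = 0.00264), with a read ratio of 4.31 (interval 2.65 to 7.35). At the 5′ end genes pattern the distal limb and the genital tubercle. Hoxd10 there had no read in control but 4 and 6 in Baf60c KD (adjusted p = 0.00632). It was 2.84-fold higher against the floor, with the Baf60c KD count taken as exact, and its counting interval starts at 1.91. The call of Hoxd10 was lost when any of the 4 libraries was left out of the filtered fit. Hoxd13 had 4 and 6 reads in control against 12 and 17 in Baf60c KD (adjusted p = 0.012; read ratio 2.47, interval 1.17 to 5.69), a call lost without control replicate 1 or either Baf60c KD library. Hoxd11 (0, 0, 0 and 1 reads) and Hoxd12 between them were at or near 0.

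In the Hoxa cluster, on chromosome 6 (mm9, 52105366 to 52210874, minus strand), reads of the genes given here were few. Hoxa2, which patterns the second pharyngeal arch, had 6 and 11 reads in control against 16 and 22 in Baf60c KD and passed narrowly (0.21, adjusted p = 0.0368; 0.0632 with voom). Its call was lost with median-ratio and TMM factors and without either Baf60c KD library too, and its annotated exons overlap those of Hoxa3.

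From Hoxa3 onwards the cluster was at or near 0 in control. Hoxa9, a gene of blood progenitors and the trunk, had 0 reads in both control libraries and 9 and 4 in Baf60c KD and did not pass (adjusted p = 0.0683; 4.04e-04 with voom). Hoxa3 had 0 and 0 reads in control against 6 and 3 in Baf60c KD (adjusted p = 0.0667; 0.00311 with voom). Hoxa5 (2 and 1 reads in Baf60c KD), Hoxa10 (1 and 4) and Hoxa11 (1 and 1) had no control read, Hoxa13 had 0, 1, 1 and 5 reads, and Hoxa4, Hoxa6 and Hoxa7 had none in any library. The middle of the Hoxa cluster therefore had no read at groups 4, 6 and 7, where Hoxb4 and Hoxb6 rose.

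The Hoxc cluster, on chromosome 15 (mm9, 102751534 to 102867274, plus strand), which begins at group 4 and is known mostly for trunk and hindlimb patterning, had a lower level than Hoxb and Hoxd. It summed to 0.0803 and 0.0948 RPKM in control against 0.622 and 0.458 RPKM in Baf60c KD, a ratio of 6.17. Hoxc8 had 0 and 3 reads in control against 8 and 16 in Baf60c KD (adjusted p = 0.0134). Hoxc4 had 0 and 0 reads in control against 3 and 8 in Baf60c KD (adjusted p = 0.0243). It was 3.13-fold higher against the floor, with the Baf60c KD count taken as exact, and its counting interval starts at 2.14. Hoxc8 and Hoxc4 were the 2 members called. Without the filter on reads both calls were lost whichever library was left out. In the filtered fits both were lost without control replicate 1 or Baf60c KD replicate 2. The call of Hoxc4 was also lost there without control replicate 2.

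The other Hoxc genes did not pass. Hoxc6 had 1 and 0 reads in control against 8 and 0 in Baf60c KD, so that its 8 reads stood in 1 library. Hoxc13 had 3 and 2 reads in control against 2 and 4 in Baf60c KD, the member with the scaled ratio closest to 1 among those with at least 10 reads (1.02, interval 0.260 to 4.24). Hoxc9 (3 and 1 reads in Baf60c KD), Hoxc10 (1 and 1), Hoxc5 (0 and 1) and Hoxc11 (1 and 0) had no control read, and Hoxc12 had none in any library.

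**Figure D2:**
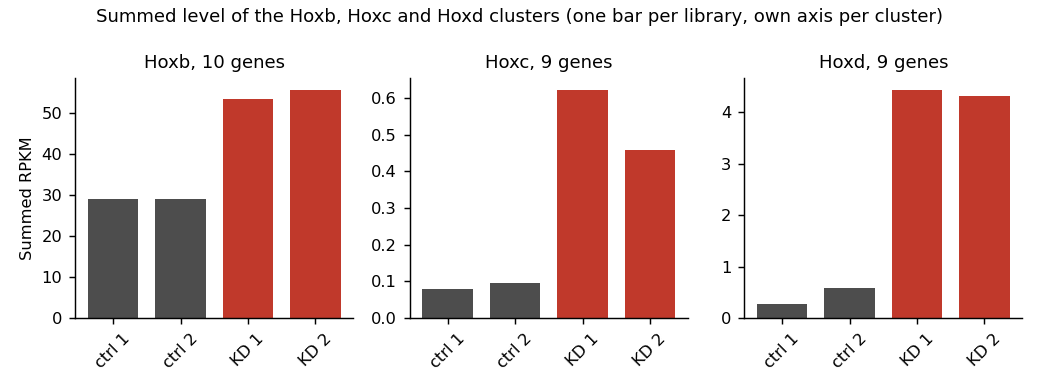
Summed RPKM of the Hoxb, Hoxc and Hoxd clusters in each library, as bars from 0 with an axis per cluster. Both Baf60c KD bars exceed both control bars in each cluster, with ratios of the group means of 1.88 (Hoxb), 6.17 (Hoxc) and 10.3 (Hoxd).

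**Figure D3:**
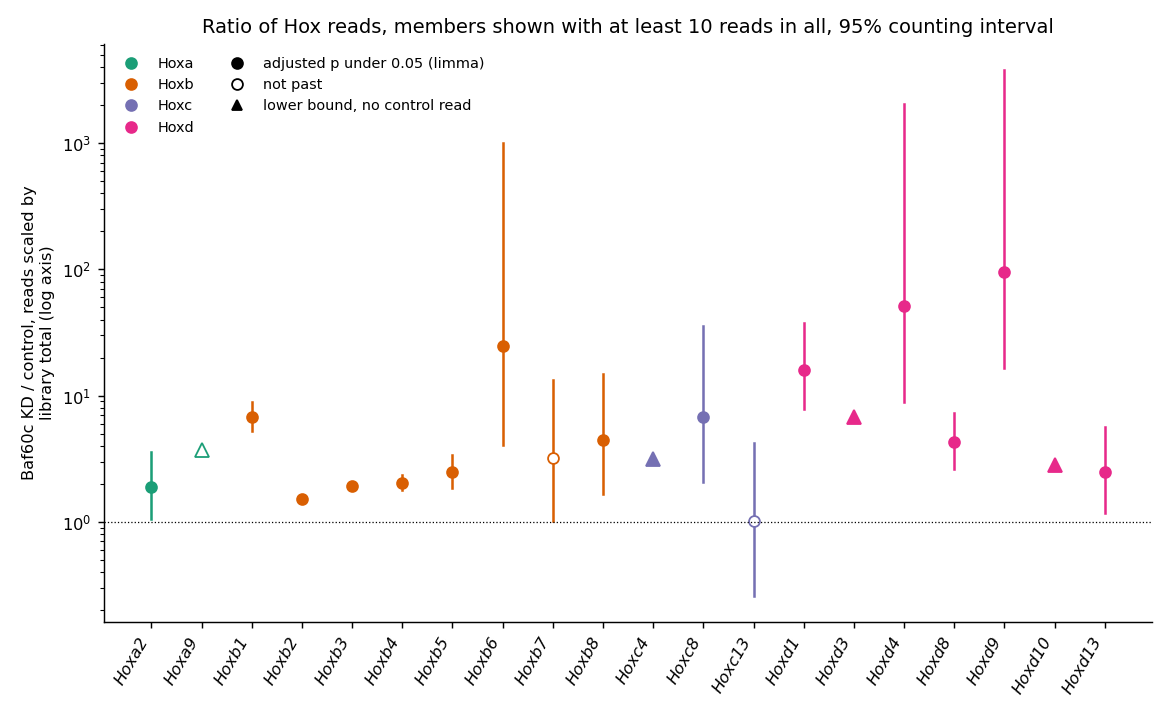
Ratio of Baf60c KD to control reads, scaled by library totals, for Hox members with at least 10 reads in all (log axis). Circles have 95% counting intervals, and filled symbols passed the test. Triangles, labelled as lower bounds, are ratios against a floor of 3 counts for members with no control read. They leave out counting error in Baf60c KD, so the ratio can lie below them. Hoxb2 (1.52), Hoxb3 (1.94) and Hoxb4 (2.05) have narrow intervals, while Hoxb6, Hoxd4 and Hoxd9 rest on 1 control read each.

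Members were also counted by paralog position. Of the 15 genes of groups 4 to 8, 3 had no read and 8 of the other 12 rose. Of the 16 genes of groups 9 to 13, 3 had no read and 3 of the other 13 rose. Over all genes with a read 25.3% were higher, and among those with a mean under 0.5 RPKM 8.49% were. Summed levels were 3.71 and 3.72 RPKM in control against 9.84 and 9.67 RPKM in Baf60c KD for groups 4 to 8 (ratio 2.63), and 0.139 and 0.233 against 1.77 and 1.69 RPKM for groups 9 to 13 (9.31). Most of the Baf60c KD sum of groups 9 to 13 was Hoxd9 (1.05 and 0.957 RPKM). In control Hoxd9 had 0 and 0.0216 RPKM and Hoxd13 had 0.0695 and 0.110 RPKM. The ratios of single groups were 1.52, 1.96, 2.25 and 2.55 in groups 2 to 5. They were 17.4, 3.08, 4.56 and 42.2 in groups 6 to 9, and 2.36 in group 13. Those of groups 6 and 9 rest on few control reads (2 and 0 in group 6, 1 and 2 in group 9). The difference between positions was not tested, and the number of calls moves with the number of reads.

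Single paralog groups differed in their makeup. In group 1 both Hoxb1 and Hoxd1 rose. All 3 genes of group 8 (Hoxb8, Hoxc8 and Hoxd8) rose as well, each from under 0.5 RPKM. In group 4, Hoxb4, Hoxc4 and Hoxd4 rose and Hoxa4 had no read, and both genes of group 12 had no read.

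Among the Hoxb and Hoxd genes the order of levels was kept at the top. In control it ran Hoxb2, Hoxb3, Hoxb4, and then Hoxb5 and Hoxb1, whose values overlapped between libraries. In Baf60c KD it ran Hoxb2, Hoxb3, Hoxb4, Hoxb1, Hoxb5, Hoxd1, and then Hoxd9 and Hoxd8, whose values overlapped. Hoxd1, Hoxd8 and Hoxd9 averaged at least 0.5 RPKM in Baf60c KD and less in control.

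Many members had no read at all in control. Reads were found for 16 and 18 of the 39 genes in the control libraries and for 31 and 31 in the Baf60c KD libraries. A total of 19 members had no read in either control library, and 13 of these (33.3% of the 39) had at least 1 read in Baf60c KD, a state found in 3.11% of all genes. The reverse, reads in control and none in Baf60c KD, was found for 0 members and for 2.26% of all genes. Of the 13, 10 had reads in both Baf60c KD libraries (0.903% of all genes). A library with 0 reads allows a count of up to 3, so that these genes were not detectable in control at this depth, which is not the same as absent, and the Baf60c KD libraries together held more reads than the control libraries.

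Hox genes share coding sequence in the homeobox, and the sources used here do not say how reads that match several genes were counted. Among 210 pairs of the 21 members with at least 10 reads, the longest exact run shared by their coding sequences (GENCODE vM1 transcripts) was 47 bases, with a median of 15, and 6 pairs shared 30 or more. The run of the adjacent genes Hoxb6 and Hoxb7 is printed because reads there could be credited to the wrong member.
Hoxb6 and Hoxb7: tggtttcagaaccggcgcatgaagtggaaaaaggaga
In control Hoxb3 had 1539 reads in all, Hoxd3 had 0 and Hoxd4 had 1. Whether reads of any pair were credited to the wrong member was not tested.

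Genes known to act on or with the Hox clusters were counted from lists, to be read against the shares over all genes (25.3% higher and 13.3% lower). Of the Cdx and posterior mesoderm list, 4 of 7 genes with reads rose, 0 fell (0 at an unadjusted p under 0.05, and 0 with voom) and 3 did not pass. The median log2 fold change was 0.22, and Cdx1 and Wnt3a had no read. Of the 7, 3 had no control read and so could not be lower. T, Evx1, Nkx1-2 and Tbx6 averaged under 0.5 RPKM, where 8.49% of all genes were higher and 5.67% lower. Cdx2, a caudal factor that activates trunk Hox genes, had 0 and 5 reads in control against 59 and 90 in Baf60c KD, or 0 and 0.106 against 1.21 and 1.38 RPKM (log2 fold change 1.13, SE 0.075, limma adjusted p = 1.54e-04). Evx1, a posterior homeobox gene that lies beyond the 5′ end of the Hoxa cluster, had 0 and 1 reads in control against 26 and 32 in Baf60c KD (0.46, adjusted p = 2.22e-04). Nkx1-2, a gene of the caudal epiblast, had 0 and 0 reads in control against 8 and 19 in Baf60c KD (0.33, adjusted p = 0.00538). T, the fourth gene that rose, also had no control read and 9 and 8 in Baf60c KD, while Tbx6 had 18 and 9 against 17 and 24 reads and did not pass.

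In the retinoic acid list 4 of 18 genes with reads rose, 3 fell and 11 did not pass, with a median log2 fold change of 0.043, and the counts are close to the shares over all genes (25.3% and 13.3%, or 18.4% and 18.1% with median-ratio factors). Crabp1, which binds retinoic acid, had 4.43 and 4.04 RPKM in control against 8.52 and 9.67 RPKM in Baf60c KD (0.94, limma adjusted p = 2.69e-04), and the receptor gene Rarg had 3.34 and 2.83 against 6.86 and 6.01 RPKM (0.87, adjusted p = 7.25e-04). Dhrs3, a retinaldehyde reductase, rose as well (0.85), whereas the receptor partners Rxrg (−0.47), Rxra (−0.41) and Rxrb (−0.15) fell. Aldh1a2, the main enzyme of retinoic acid synthesis in the embryo, had 1 or 2 reads in each library, and Aldh1a1 had none.

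Of the Hox partners, homeodomain factors that bind DNA together with Hox proteins, 5 of 9 rose, 0 fell (0 at an unadjusted p under 0.05, and 0 with voom) and 4 did not pass (median 0.19). Pknox2 had 7.46 and 7.17 RPKM in control against 10.5 and 10.5 RPKM in Baf60c KD (0.47, limma adjusted p = 5.71e-04), Meis1 13.97 and 15.7 against 19.0 and 20.1 RPKM (0.38, adjusted p = 0.00448) and Meis2 9.15 and 9.43 against 12.0 and 12.5 RPKM (0.37, adjusted p = 0.00144). The lowest levels in control were those of Pbx4 (0.225 and 0.203 RPKM) and Pknox1 (3.40 and 3.17 RPKM), which did not pass.

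Polycomb and trithorax genes, whose products hold Hox genes silent or active, changed little in size. Of 22, 11 rose, 2 fell and 9 did not pass, with a median log2 fold change of 0.15. Cbx7, a Polycomb chromodomain gene, fell from 3.88 and 3.54 to 2.58 and 2.41 RPKM (−0.43, limma adjusted p = 0.00384), Cbx8 rose from 2.20 and 2.22 to 3.18 and 3.37 RPKM (0.41, adjusted p = 0.00303), and Ezh1 rose from 5.28 and 5.16 to 6.88 and 7.06 RPKM (0.36, adjusted p = 0.0022).

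**Figure D4:**
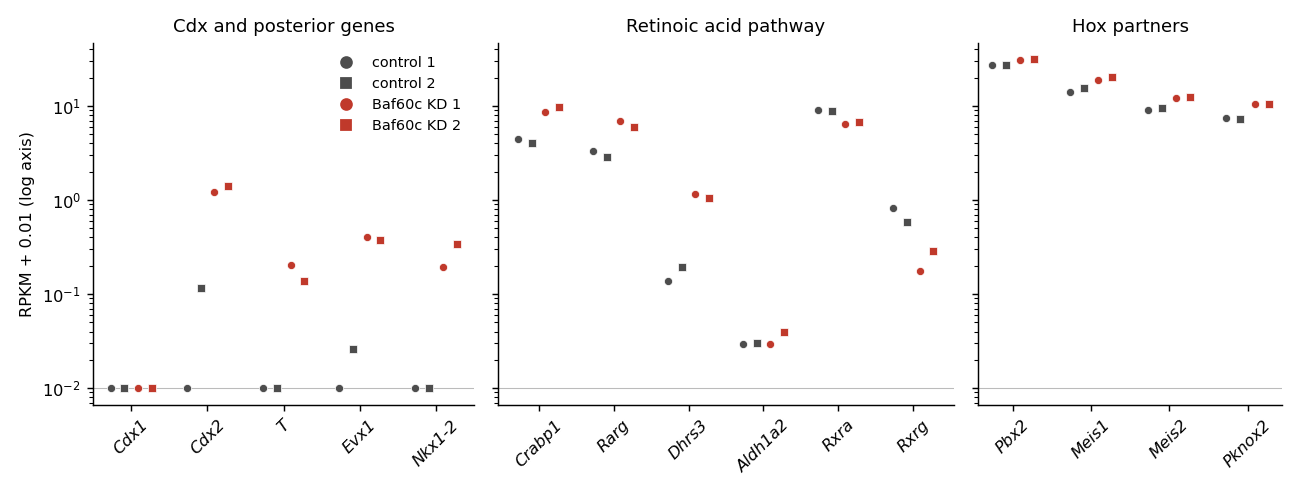
Levels in each library (RPKM + 0.01, log axis; points on the grey line are at 0 reads) of genes known to act on or with Hox genes. Cdx2, T, Evx1 and Nkx1-2 have between 0 and 5 reads in a control library and 8 to 90 in a Baf60c KD library, while the Hox partners drawn (Pbx2, Meis1, Meis2 and Pknox2) lie above 7 RPKM in all 4 libraries.

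Genes that flank the clusters moved in both directions. Of 20 neighbours found in the table, 7 rose, 2 fell and 11 did not pass, with a median log2 fold change of 0.054. The neighbours with the largest changes were Skap1, an adaptor gene beyond Hoxb1 (0.68, limma adjusted p = 0.00187), the heterochromatin gene Cbx1 near it (0.50, adjusted p = 1.16e-04) and Evx1 as above. Evx2, which lies next to Hoxd13, had 0, 0, 1 and 1 reads. Of other homeobox genes outside the clusters, 3 of 14 with reads rose, 1 fell (Gsx2, with 2 and 2 reads in control and none in Baf60c KD) and 10 did not pass. Only 7 of this list had at least 10 reads in all. Over all genes 25.3% were higher, and among those with a mean under 0.5 RPKM 8.49% were. Gbx2, a gene of the midbrain-hindbrain boundary, had 1 and 1 reads in control against 20 and 20 in Baf60c KD (0.42, adjusted p = 9.89e-04), Dlx2 had 4 and 3 against 18 and 22 reads (0.30, adjusted p = 0.00108), and Emx2 had 4 and 2 against 18 and 18 reads (0.27, adjusted p = 0.00371).

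Noncoding transcripts of the clusters stood in a second table that the authors had scaled on its own, and were tested there. Of 12 that were found, 6 had a read and 0 were called by limma on log2(RPKM + 1), a test that called 0.0711% of 1406 genes higher, while 2 were at an unadjusted p under 0.05. With voom, which called 4.41% higher, 2 were called, an alternative chosen after seeing the data. Haglr, an antisense transcript next to Hoxd1, had 3 and 0 reads in control against 46 and 66 in Baf60c KD (log2 fold change 0.85, adjusted p = 0.108; 3.67e-08 with voom). Hotairm1, an antisense transcript near Hoxa2, had 11 and 16 reads in control against 48 and 45 in Baf60c KD (1.26, adjusted p = 0.278; 5.64e-05 with voom). In each case both Baf60c KD libraries lay above both control libraries, as for Hoxd1. That held for 3 of the 6 with a read. It also held for 42% of the 16061 genes tested above, and the share among the 1406 genes was not computed. Hotair had no read, and Hottip had 0, 0, 0 and 1 reads. The microRNA genes of the clusters had no read in any library except Mir196a-1, with 1, in a polyA library that is not made to hold microRNAs.

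Markers of other cell types that express Hox genes in the embryo moved in part with the clusters. The counts are to be read against the shares over all genes with a read (25.3% higher and 13.3% lower). By level, 32.3% of genes with a mean of at least 0.5 RPKM and 8.49% of those under it were higher. Of the fibroblast and feeder list, 9 of 13 genes with reads rose and 1 fell, with a summed level of 75.5 and 75.5 RPKM in control against 108.7 and 111.7 RPKM in Baf60c KD. Of these Col1a1 (6.85 and 7.11 against 22.9 and 22.8 RPKM) and Twist1 (10.0 and 9.48 against 24.04 and 25.7 RPKM) had among the highest levels, while Dcn, Lum and S100a4 had at most 3 reads in any library and Fap had none. Of the epicardial and mesothelial list, 6 of 10 rose, 0 fell (0 at an unadjusted p under 0.05, and 0 with voom) and 4 did not pass. Its member Aldh1a2, with 1 or 2 reads in each library, was among the 4. The sum of this list went from 37.9 and 38.4 RPKM to 76.8 and 76.8 RPKM. What part these markers have in the Hox difference was not tested.

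Paraxial mesoderm forms the somites and expresses Hox genes strongly. Of its list of 12 genes, 9 had reads, with 220 and 196 reads in all in control against 249 and 300 in Baf60c KD, most of them of Foxc1. None of the 9 was called (0 by limma, 0 at an unadjusted p under 0.05 and 0 with voom), the sum was 2.97 and 2.63 against 3.26 and 3.09 RPKM, and Msgn1, Meox2 and Ripply2 had no read. Of the neural tube list, 2 of 10 rose and 2 fell, beside 25.3% and 13.3% of all genes. The sum was 6.09 and 6.48 against 5.40 and 5.84 RPKM. Sox2, of neural and caudal epiblast progenitors, was 1 of the 2 that rose. It had 8 and 4 reads in control against 80 and 127 in Baf60c KD (1.21, limma adjusted p = 1.39e-04). Pax6 fell, and Olig2 and Nkx6-1 had no read.

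Among the remaining marker lists, 2 of 7 neural crest genes rose and 0 fell (sum 19.99 and 20.1 against 32.3 and 33.5 RPKM), 4 of 9 endoderm genes rose and 1 fell (61.8 and 60.3 against 69.9 and 68.9 RPKM), 6 of 10 endothelial genes rose and 3 fell (40.1 and 38.7 against 63.1 and 65.5 RPKM), 3 of 9 blood genes rose and 0 fell (7.81 and 7.89 against 22.6 and 24.2 RPKM) and 3 of 8 pluripotency genes rose and 1 fell (107.0 and 110.0 against 131.7 and 130.9 RPKM). Over all genes 25.3% were higher and 13.3% lower, and the counts of risers in the neural crest, blood and pluripotency lists lie near that share. Neither the neural crest nor the blood list had a gene lower at an unadjusted p under 0.05 or with voom. Sox10 and Foxd3, which define the neural crest, had at most 4 reads in any library, Cer1 of the endoderm and Ptprc of blood had none, and the cardiac list fell in sum from 1163 and 1169 to 783.9 and 805.6 RPKM, with 2 of 8 genes higher and 6 lower. What part these cell types have in the Hox levels was not tested.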

How the data were processed

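RNA-seq of 4 libraries (2 control, 2 Baf60c KD) was used, grouped by the sample labels. The authors mapped reads with STAR to mm9, counted them with HOMER over RefSeq exons on both strands and deposited RPKM computed with edgeR (versions are not given in the sources used here). The authors' DESeq2 columns, deposited beside them (a mean signal of normalised reads, log2 fold change, p-value), were not used. The table proved to be 31507 and 4200 rows scaled separately and stacked. RPKM × length × library total gave whole reads for 100% of values (tolerance 0.001), with 12623031 to 17649363 reads in the 1 transcript kept per gene (most reads).

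Tests used limma (3.58.1, R 4.3.3) on log2(RPKM + 1) with trend and robust priors, no covariate and no expression filter, adjusted over 16061 genes with a read. Calls were at an adjusted p under 0.05. Replicates differed by more than counting noise (chi-square per degree of freedom 1.49 and 1.16, against 80.1 between groups). Intervals are exact 95% and cover counting error only. An exact permutation test of 2 against 2 cannot go below p = 0.33 and was not used. Named with every value were members called or with at least 10 reads, and the 3 most changed called genes of each list. Some members, list genes and sequences that meet this rule are not reported here. Others in the lists were chosen after their values were seen. Members and lists were chosen with earlier results of these data known. The test was run on simulated data, with changes placed only in genes with more reads than most Hox members had. That run cannot show how well changes of genes with few reads are found. Gene positions and exon overlaps are from GENCODE vM1 (mm9), promoters from RefSeq (GRCm38.p6).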

Additional observations from a re-analysis of the deposited data

How the results depend on the processing

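The number of Hox members called higher was 18 as reported, and 0 were lower in each setting run. It was 17 with median-ratio factors, 17 with TMM factors, 19 and 18 with pseudocounts of 0.1 and 0.5 RPKM, 18 of 21 with at least 10 reads, 20 with voom and 18 with the longest transcript, and 9 of 9 when only genes averaging 0.5 RPKM or more were kept, which leaves fewer members to test and which Hoxd1, Hoxd8 and Hoxd9 pass only through the Baf60c KD libraries. Hoxa2 lost its call with median-ratio factors, TMM factors, the pseudocount of 0.1 and voom, and Hoxa9 gained one with voom, the pseudocount of 0.1 and the replicate block. Leaving out each library in turn gave 0 to 16 calls. Without filter there were 12 and 15 without control replicates 1 and 2, 0 without Baf60c KD replicate 1 and 5 without Baf60c KD replicate 2, where all genes gave 0 and 374 calls (5309 and 5362 at an unadjusted p under 0.05, with 20 Hox members in each) and the prior degrees of freedom fell from 4.03 to 1.31 and 1.42. With a filter of at least 10 reads, chosen after seeing the data, there were 13, 16, 16 and 14 of 21, of which 13, 16, 15 and 13 were among the 18. All 18 members kept a positive fold change in each of these fits. Hoxd10 lost its call in all 4 filtered fits, Hoxc4, Hoxa2 and Hoxd13 in 3, and Hoxc8 in 2.

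The labels number replicates 1 and 2 in both groups, and no source pairs them. The correlation of deviations between same-numbered libraries was 0.024 over 11371 genes, and a fit with a replicate block called 21 members. The split of all genes depended on scaling, 25.3% higher and 13.3% lower as deposited against 18.4% and 18.1% with median-ratio factors, which put the ratio of the Hoxb sum at 1.78 in place of 1.88. The number of members with no read was 6 with any transcript. Quasi-likelihood and negative binomial count models were not run, since the deposited unit was RPKM. Few reads limit the ratios: 18 of the 39 members had under 10 reads in all.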
